A study of Saccharomyces cerevisiae with 17 samples.

Results

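The pre-mRNA splicing genes of budding yeast, Saccharomyces cerevisiae, were examined for histone H3 methylated on lysine 4 at their starts. The set held 54 genes out of 6002 nuclear protein-coding genes. It was chosen by function, from named protein components of the spliceosome, and not by any measured value. All 54 were found by symbol in the gene table. A gene was counted as marked when a listed peak covered at least 1 bp of the first 500 bp of its open reading frame (ORF), or of the whole ORF where it was shorter. Chromatin immunoprecipitation and sequencing (ChIP-seq) had been run on formaldehyde-fixed cells of strain BY4741A, taken from YPD cultures in exponential growth, with homemade rabbit polyclonal antibodies. The series listed 17 samples from 4 genotypes, namely CPS25 wild type, the A142D mutant of Cps25, a CPS25 deletion and a SET1 deletion, each with antibodies to dimethylated (H3K4me2) and trimethylated (H3K4me3) lysine 4, plus an input. Peak lists of 4 of these samples were used, all replicate 1: both antibodies in wild-type Cps25 cells and both in SET1 deletion cells. The other 13 samples, the Cps25 mutants among them, were not analysed here.

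Introns are removed from pre-mRNA by the spliceosome, which is built on each intron from the small nuclear ribonucleoproteins (snRNPs) U1, U2 and the U4/U6.U5 tri-snRNP. Sm proteins form a ring on most of the snRNAs, the Prp19 complex joins during activation, and RNA helicases drive the steps from assembly to disassembly. Set1, the catalytic subunit of COMPASS, makes all H3K4 methylation in this yeast, and Cps25 is a COMPASS subunit related to mammalian Dpy-30. H3K4me3 is known for lying over the first nucleosomes of transcribed genes, with H3K4me2 reaching further into the gene body.

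The H3K4me2 list of wild-type Cps25 cells held 4393 peaks and the H3K4me3 list 4087. In the SET1 deletion, where the target of both antibodies is lost, the lists held 927 and 743 peaks. By their names, both wild-type lists had peaks found in the SET1 deletion taken out, so a gene near such a peak can lack a listed mark through that step. The read depth behind the lists was unknown. Each group was represented by 1 list, so no spread between replicates could be had and no p-value is given. Intervals on shares are exact Clopper-Pearson intervals at 95% and treat genes as independent draws. The authors' score per peak was used only as a percentile, the share of peaks in the same list with a score no higher, and it is not a level of methylation. Coordinates are those of build sacCer3, and distances are from the start codon.

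Nearly all splicing genes carried both marks at their start. An H3K4me2 peak lay over the first 500 bp of 51 of the 54 genes, or 94.4% (interval 84.6 to 98.8), against 75.1% of all genes. The count for H3K4me3 was also 51, or 94.4%, against 68.7% of all genes. Both marks were found at 49 members, or 90.7% (79.7 to 96.9), against 66.2% of all genes. In the SET1 deletion no member had a peak in this window with either antibody, 0 of 54 each (interval up to 6.6%), where 4.75% of all genes had one with the H3K4me2 antibody and 3.4% with the H3K4me3 antibody. Genes that have a standard name, as every member does, were marked more often than all genes, at 80.1% for H3K4me2, 74.2% for H3K4me3 and 71.4% for both. In the map of peaks around each start, the members' peaks began a median of 102 bp upstream of the start codon for H3K4me2. For H3K4me3 the median was 72 bp. Some H3K4me2 peaks began far upstream, with an upper quartile of 710 bp.

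**Figure D1:**
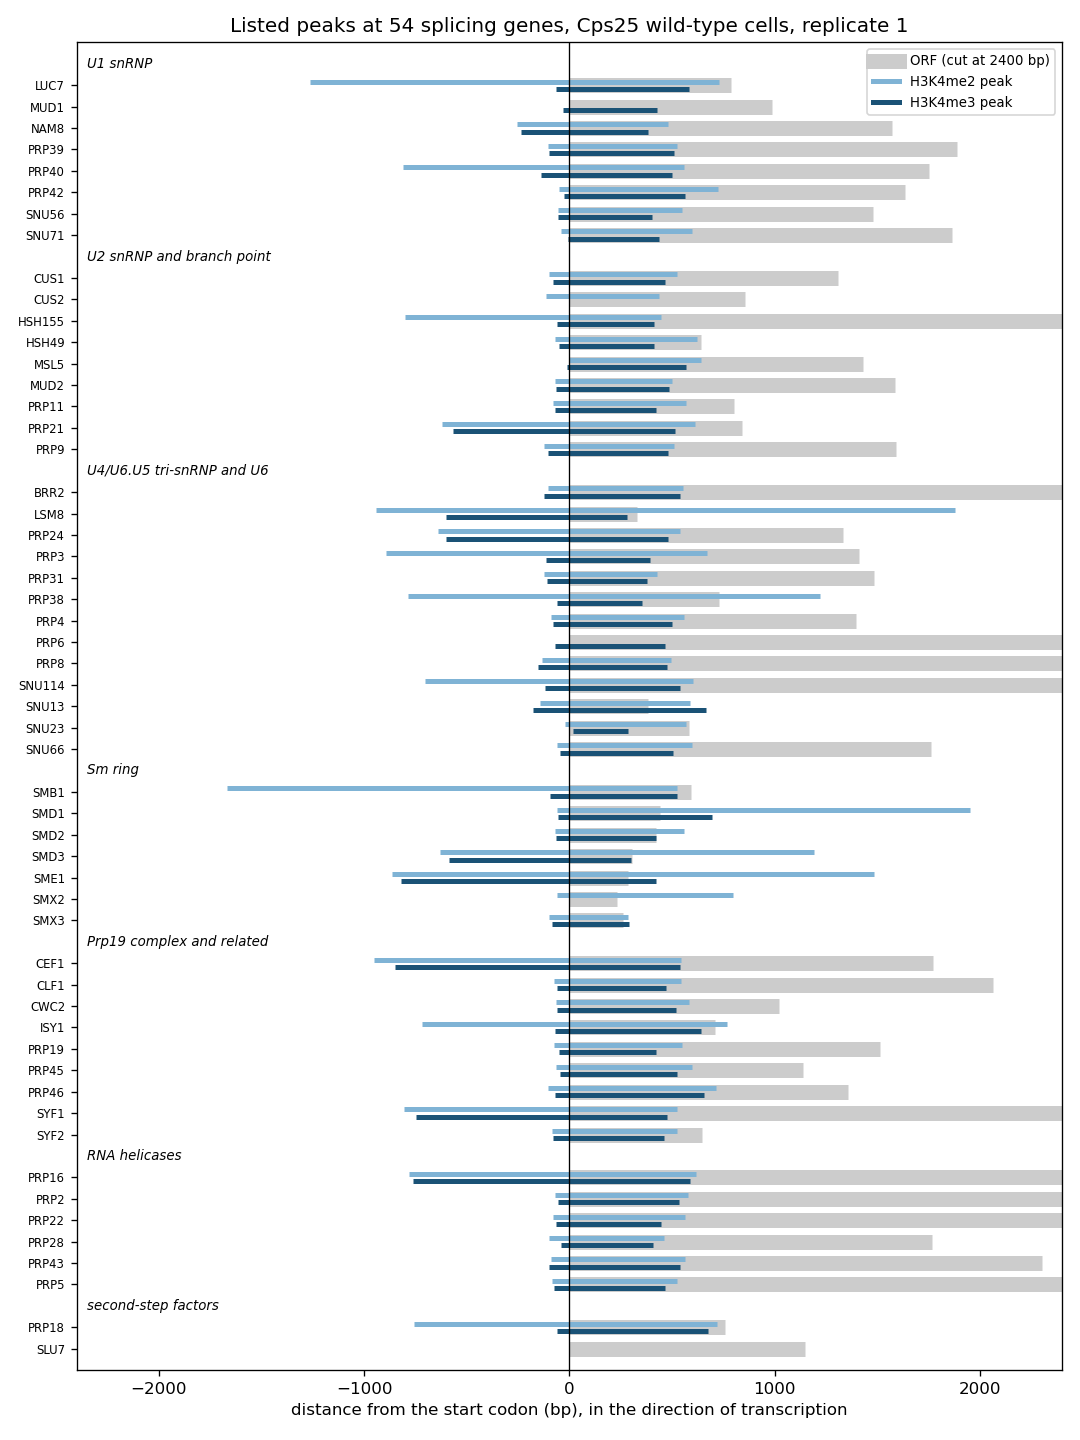
Peaks of wild-type Cps25 cells around the start codon of each of the 54 splicing genes, 1 row per gene in order of role; the x axis is the distance from the start codon in bp and bars are H3K4me2 and H3K4me3 peaks. Both marks lie over the first 500 bp of 49 genes, and some H3K4me2 bars, such as that of LSM8, reach far past the gene.

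Members were marked at all ORF lengths, while the share of all genes was lowest among short ORFs. Of the 8 members with ORFs of up to 500 bp, 8 had H3K4me2 and 7 had H3K4me3, against 50.7% and 46.1% of all genes in that class. For ORFs of 500 to 1000 bp the counts were 11 and 11 of 12, against 75.7% and 69.6%. For ORFs of 1000 to 2000 bp they were 21 and 21 of 22, against 78.6% and 71.1%. For ORFs over 2000 bp they were 11 and 12 of 12, against 84.8% and 78.9%. Each class holds only 8 to 22 members, and no more than 1 member of a class lacked a given mark.

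A wild-type mark was missing at 5 members, and 4 of them lay near a SET1 deletion peak. MUD1 and PRP6 had H3K4me3 only (2 of 54, against 2.52% of all genes). SMX2 and CUS2 had H3K4me2 only (2 of 54, against 8.85%). SLU7 had neither, 1 of 54 against 22.4%. A peak of the SET1 deletion lay between 500 bp upstream and 1000 bp downstream of the start codon of 5 members in all, or 9.26%, against 14.7% of all genes: MUD1, PRP6, SLU7, CUS2 and PRP22. Of the 49 members away from such peaks, all 49 had H3K4me2, 48 had H3K4me3 and 48 had both, where the shares of the 5121 genes so placed were 80.7%, 72.5% and 72.4%.

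MUD1 (YBR119W, chromosome II, 479338 to 480323) encodes a U1 snRNP protein, the counterpart of the U1 A protein of metazoans. In the SET1 deletion the H3K4me2 antibody gave a peak at 479017 to 479308, over the end of the upstream gene TEF2 and ending 30 bp before the MUD1 start codon. The running numbers of the wild-type H3K4me2 list skip 1 peak around this start, and the nearest listed H3K4me2 peak begins 1113 bp downstream. Its H3K4me3 peak, from 479306 to 479767, overlapped that region by a few bases and stood at percentile 12.3.

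PRP6 (YBR055C, chromosome II, 344602 to 347301, minus strand) encodes a tri-snRNP scaffold protein. A tRNA gene (YNCB0012W) lies upstream of it, and over it the SET1 deletion had peaks with both antibodies, at 160 bp and 191 bp from the start codon. Between the listed wild-type peaks on either side of the start codon, numbers skip 2 H3K4me2 peaks and 1 H3K4me3 peak. Where in those stretches the skipped peaks lay is not known. An H3K4me3 peak of 540 bp at percentile 40.8 was listed over the PRP6 start, while the nearest listed H3K4me2 peak was 5345 bp away.

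SLU7 (YDR088C, chromosome IV, 618497 to 619645, minus strand) encodes a factor of the second catalytic step. It too has a tRNA gene upstream (YNCD0013C), with SET1 deletion peaks at 189 bp and 174 bp from its start codon for the H3K4me2 and H3K4me3 antibodies, and 1 number is skipped in each wild-type list. The nearest listed wild-type peaks lay 1244 bp and 1254 bp downstream, past the end of the ORF. Whether wild-type peaks at these starts were absent or removed cannot be told apart from the lists.

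CUS2 (YNL286W, chromosome XIV, 95223 to 96080), which encodes a U2 snRNA-binding assembly factor, had the lowest H3K4me2 percentile of the set, 7.83, and no H3K4me3 peak. The SET1 deletion peaks over the tRNA gene SUF6 began 871 bp and 956 bp downstream of its start, and no wild-type number was skipped around it. PRP22 had a SET1 deletion peak with the H3K4me2 antibody 308 bp upstream, over the end of PRE1, and carried both wild-type marks.

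SMX2 (YFL017W-A, chromosome VI, 103699 to 103932), the gene of the Sm protein G, was the only member lacking a mark with no SET1 deletion peak near it. Its 234 bp ORF lies whole under an H3K4me2 peak at 103640 to 104495, which also holds the start of the next gene, GNA1. The nearest H3K4me3 peak, 104054 to 104487, began 355 bp after the SMX2 start codon and so past the end of its ORF.

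The U1 snRNP recognises the 5′ splice site. Of its 8 proteins in the set, 7 had H3K4me2 and 8 had H3K4me3. PRP40, whose product contacts both the U1 snRNP and the branch point protein, had the highest H3K4me3 percentile of all members, 89.8, with an H3K4me2 percentile of 63.7. LUC7, which takes part in choosing the 5′ splice site, stood at H3K4me2 percentile 94.4 and H3K4me3 percentile 69.9. NAM8, needed for splicing of meiotic introns, stood at 91.1 and 69.6. The median percentile over the U1 genes was 63.7 for H3K4me2 and 46.1 for H3K4me3. PRP42, SNU56 and SNU71, further U1 proteins, stood between 44 and 64 in H3K4me2 and between 22 and 40 in H3K4me3. PRP39 at 31.8 for H3K4me2 and MUD1 at 12.3 for H3K4me3 were the lowest of the group.

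The U2 snRNP binds the branch point, where MSL5 and MUD2 products bind before it. All 9 genes of this group had H3K4me2, and all but CUS2 had H3K4me3. MUD2, the yeast counterpart of the large subunit of U2AF, stood at percentiles 73.5 and 76.8, above the all-gene medians of 53.9 and 52.9. MSL5 stood at 59.5 and 64.2. The SF3a genes PRP9, PRP11 and PRP21 had H3K4me2 percentiles of 37.3, 36.3 and 47.1. For H3K4me3, PRP11 and PRP21 stood at 69.6 and 71.0, and PRP9 at 29.6. HSH155, the SF3b subunit that grips the branch helix, stood at 68.4 and 58.0, and CUS1 and HSH49 lay between 42 and 58 in both lists.

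The tri-snRNP group, with U6 proteins, held 13 genes, of which 12 had H3K4me2 and 13 had H3K4me3. PRP8, the U5 protein at the heart of the catalytic centre, and BRR2, the helicase that unwinds U4 from U6, ranked behind PRP40 in H3K4me3, at percentiles 85.1 and 84.5. Their H3K4me2 percentiles were 50.03 and 69.4. SNU114, the GTPase that works with both, stood at 73.1 for H3K4me2 and 71.8 for H3K4me3. SNU13, whose product is shared with the box C/D snoRNPs that modify ribosomal RNA, stood at 41.4 and 79.1. SNU23 was low in both lists, at 15.2 and 2.13, and its H3K4me3 peak was only 270 bp wide and began 17 bp after the start codon. The other genes of the group with a peak had percentiles between 31 and 73 for H3K4me2 and between 26 and 66 for H3K4me3.

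The 7 Sm genes have short ORFs, from 234 bp to 591 bp. All 7 had H3K4me2 and 6 had H3K4me3. SME1 stood at percentiles 85.0 and 83.7 and SMB1 at 81.3 and 71.3, while SMX3, the gene of Sm protein F, stood at 17.8 and 24.4. SMD1, SMD2 and SMD3 stood at 41.9, 42.3 and 28.5 for H3K4me2 and at 61.7, 37.3 and 58.4 for H3K4me3. The H3K4me2 peaks over the 7 Sm genes had a median width of 1819 bp, against 662 bp over all members and 706 bp over all genes with a peak. Those of SMD2 (629 bp) and SMX3 (389 bp) held no other start. The H3K4me2 peaks of the other Sm genes also held the start of another gene. The H3K4me3 peaks over the Sm genes had a median width of 683 bp, against 583 bp over members and 612 bp over all genes.

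The Prp19 complex stabilises the activated spliceosome, and all 9 genes of the complex and its partners carried both marks. Their median percentile was 80.4 for H3K4me2 and 51.8 for H3K4me3. CEF1, an essential Myb-related core protein, stood at 97.1 and 78.3. CWC2, whose product contacts the U6 snRNA, stood at 89.8 and 80.4. PRP19, the ubiquitin ligase that gives the complex its name, stood at 88.3 and 62.1, and PRP46 at 84.3 and 47.5. ISY1 stood at 80.4 and 66.4, and SYF1 at 69.8 and 51.8. CLF1, PRP45 and SYF2 were lower, between 41 and 44 in H3K4me2 and between 35 and 42 in H3K4me3.

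All 6 genes of the helicase group, which leaves out BRR2, counted above with the tri-snRNP, carried both marks. PRP43, which takes apart the spent spliceosome and also serves ribosome assembly, had the highest H3K4me2 percentile of the set, 98.2, and stood at 81.5 for H3K4me3. PRP16, which remodels the spliceosome before the second step, stood at 78.1 and 78.7. The remaining helicases of this group, PRP2, PRP5, PRP22 and PRP28, stood between 38 and 43 in H3K4me2 and between 22 and 37 in H3K4me3. PRP18, a second-step factor, stood at 55.0 and 41.2.

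Over all members with a peak, the median percentile was 51.6 for H3K4me2 (quartiles 41.5 and 72.9) and 51.8 for H3K4me3 (36.8 and 70.4), close to the all-gene medians of 53.9 and 52.9. So the set was marked more often than all genes, with peaks of middle rank. Above percentile 90 were 4 members for H3K4me2 and 0 for H3K4me3. At or under percentile 10 was 1 member for each mark. Of the 49 members with both marks, 32 ranked higher in the H3K4me2 list, or 65.3%, near the 68.8% of all such genes, and 17 ranked higher in the H3K4me3 list. Across the 49 genes the percentiles of both marks had a Spearman rho of 0.61, and across 3975 genes with both marks 0.82. These points share their libraries and, where peaks are shared, neighbours, so rho is a description across genes.

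Along the gene, peak coverage of the members rose at the start codon and ended within 800 bp. In the first 100 bp of the ORF, H3K4me2 peaks covered 94.4% of the members' bases against 73.1% over all genes. Members also lay above all genes between 500 and 400 bp upstream, with peaks of any gene counted. There H3K4me2 covered 59.1% against 33.3%, and H3K4me3 57.6% against 28.0%. Between 500 and 600 bp, H3K4me2 covered 54.5% against 48.1%, and H3K4me3 covered 22.1% against 27.1%. Further in, the members lay below all genes in H3K4me2 too, at 17.8% against 24.5% between 600 and 700 bp and 1.1% against 9.89% between 700 and 800 bp. The furthest base of a member's ORF under a peak of either mark was base 729 of PRP38, the end of its ORF. PRP8, with the longest ORF of the set at 7242 bp, had H3K4me2 over its first 494 bp and H3K4me3 over nearly the same stretch. PRP38 was the only member with 2 H3K4me3 peaks over its ORF, against 0.8% of all genes, and no member had 2 H3K4me2 peaks over its ORF, against 1.32%. The second PRP38 peak is the one over the start of SMD1, which faces it tail to tail.

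**Figure D2:**
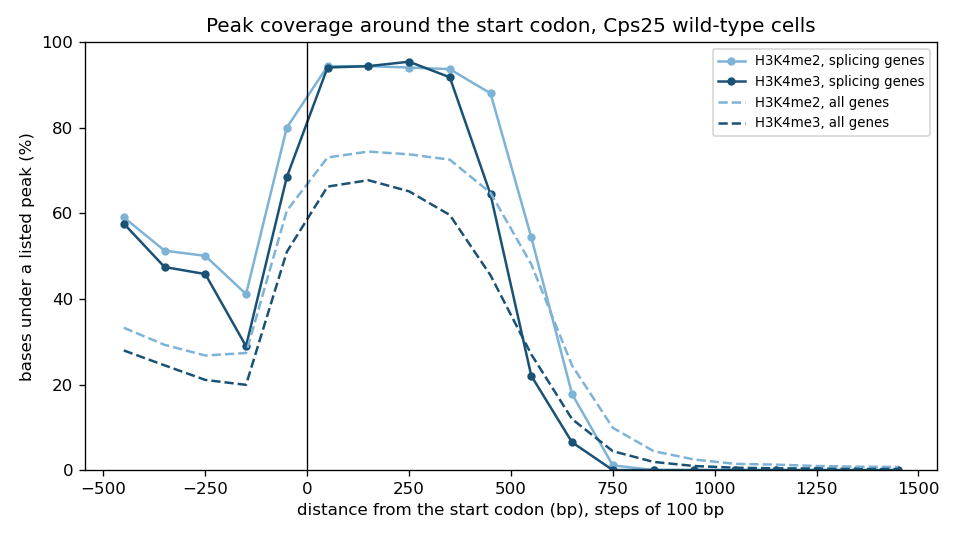
Percent of bases under a listed wild-type peak (y axis) in steps of 100 bp from the start codon (x axis, bp) for the splicing genes (solid) and all nuclear protein-coding genes (dashed); inside the ORF only genes that reach the step are counted. Splicing genes exceed all genes over the first 500 bp, and fall below them from 500 bp on for H3K4me3 (22.1% against 27.1% up to 600 bp) and from 600 bp on for H3K4me2 (17.8% against 24.5% up to 700 bp).

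H3K4me2 reached further into the gene than H3K4me3 at 46 of the 49 members with both marks, or 93.9% (83.1 to 98.7), against 94.5% of all such genes. The median downstream end of the peak was 564 bp for H3K4me2 and 478 bp for H3K4me3, against 572 bp and 493 bp over all genes. Gene by gene, the H3K4me2 peak ended a median of 64 bp further downstream (quartiles 45 and 143, interval of the median 56 to 100), against 82 bp over all genes (quartiles 42.5 and 137). H3K4me3 reached further at SNU13, where the difference was -79 bp, and at SMX3, where it was -3 bp, and both ends fell on the same base at SMB1, 522 bp after the start codon. The differences were greatest at LSM8 (1598 bp), SMD1 (1256 bp) and SME1 (1063 bp), where the H3K4me2 peak runs on over a neighbour. By role the median was 144 bp for U1, and between 53 bp and 65.5 bp for U2, the tri-snRNP, the Prp19 complex and the helicases. Among the 6 Sm genes with both marks it was 513 bp, in a widely spread group. The Sm quartiles were 33.5 bp and 1020 bp, and the values ran from -3 bp to 1256 bp. For the 32 members whose H3K4me2 peak held no other start, the median was 64.5 bp. On the upstream side, H3K4me2 began before H3K4me3 at 44 of 49 members, or 89.8%, against 77.1% of all genes.

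**Figure D3:**
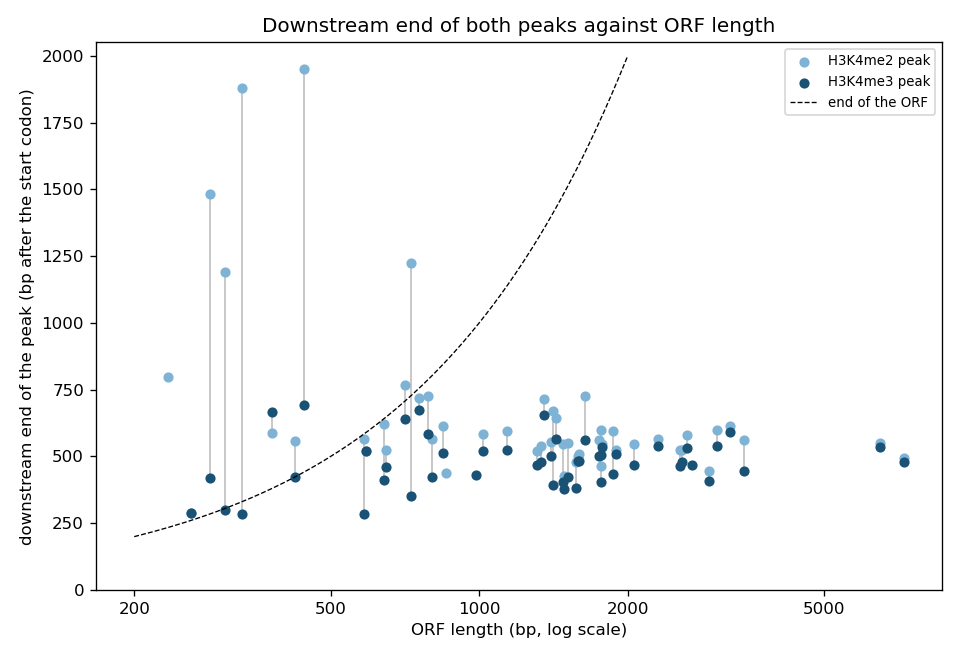
Distance from the start codon to the downstream end of the H3K4me2 and H3K4me3 peak (y axis, bp) against ORF length (x axis, bp, log scale) for the splicing genes, with grey lines joining the marks of 1 gene and a dashed line at the end of the ORF. Genes with long ORFs keep both ends near 500 bp, and short genes such as LSM8, SMD1 and SME1 have H3K4me2 ends far past the ORF.

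Many H3K4me2 peaks of the members were shared with a neighbouring gene. The H3K4me2 peak held the start codon of another gene at 18 of 51 members, or 35.3% (22.4 to 49.9), against 13.8% of all genes with a peak. For H3K4me3 the count was 8 of 51, or 15.7%, against 8.68%. At 9 of the 49 members with both marks, or 18.4% (8.76 to 32.0), the H3K4me2 peak held another start and the H3K4me3 peak did not, against 6.74% of all such genes. The widest H3K4me2 peaks were those of LSM8, whose product belongs to the Lsm ring on U6 (2824 bp, with REC107 and MDE1), SME1 (2351 bp, with MTR10 and PET123) and SMB1 (2190 bp, with CHZ1 and YPT31). SMD1 and PRP38 shared a single H3K4me2 peak of 2011 bp with MRPL25, so the 51 members lay on 50 peaks. The others joined in H3K4me2 were SMD3 with PEP3, SPE4 and YLR146W-A, SMX2 with GNA1, LUC7 with YDL086W, PRP40 with ARC19, HSH155 with DSS1, PRP21 with RCY1, PRP24 with TMA23, SNU114 with TPO5, CEF1 with EFR3, ISY1 with UTR1, SYF1 with YDR415C, PRP16 with MRPL20 and PRP18 with TFG2. The widest H3K4me3 peaks were those of CEF1 (1390 bp, with EFR3), PRP16 (1353 bp, with MRPL20) and SME1 (1243 bp, with MTR10). H3K4me3 peaks were also joined at SYF1, SMD3, PRP21, LSM8 and PRP24.

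The members lay closer to their upstream neighbours than all genes did, with a median gap of 282.5 bp against 455 bp. The upstream neighbour was divergent, transcribed away from the member, at 33 of 54 members, or 61.1% (46.9 to 74.1), and the interval contains the 52.0% of all genes. Among members with a divergent neighbour and a peak, 16 of 31 H3K4me2 peaks held another start, or 51.6%, against 21.7% of all such genes, and 8 of 31 H3K4me3 peaks did, or 25.8%, against 13.8%. With the divergent neighbour within 300 bp the H3K4me2 count was 13 of 19, or 68.4% (43.4 to 87.4), against 47.9%, and beyond 300 bp 3 of 12, against 10.2%. For H3K4me3 with the neighbour within 300 bp it was 7 of 19, or 36.8%, against 34.5%, and beyond 300 bp 1 of 12, against 4.55%. With a tandem neighbour the counts were 2 of 20 for H3K4me2, against 5.21%, and 0 of 20 for H3K4me3, against 2.96%. Those 2 are SMD1 and PRP38, which lie under 1 shared peak. Any other start was counted, not only that of the upstream neighbour. So SMX2, whose peak held the start of GNA1 and did not reach its divergent neighbour, is among the 3 beyond 300 bp. The median percentiles of members with a divergent neighbour were 68.4 for H3K4me2 and 62.1 for H3K4me3, and of members with a tandem neighbour 41.9 and 39.6. Over all genes the same medians were 57.6 and 55.2 against 49.4 and 49.3. Among divergent members, the medians were 57.8 and 50.9 where the H3K4me2 peak held only the member's own start. Where it held another start they were 71.2 and 69.9. A peak over a divergent pair can hold signal from both genes, and the part of the neighbour in these percentiles was not tested.

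**Figure D4:**
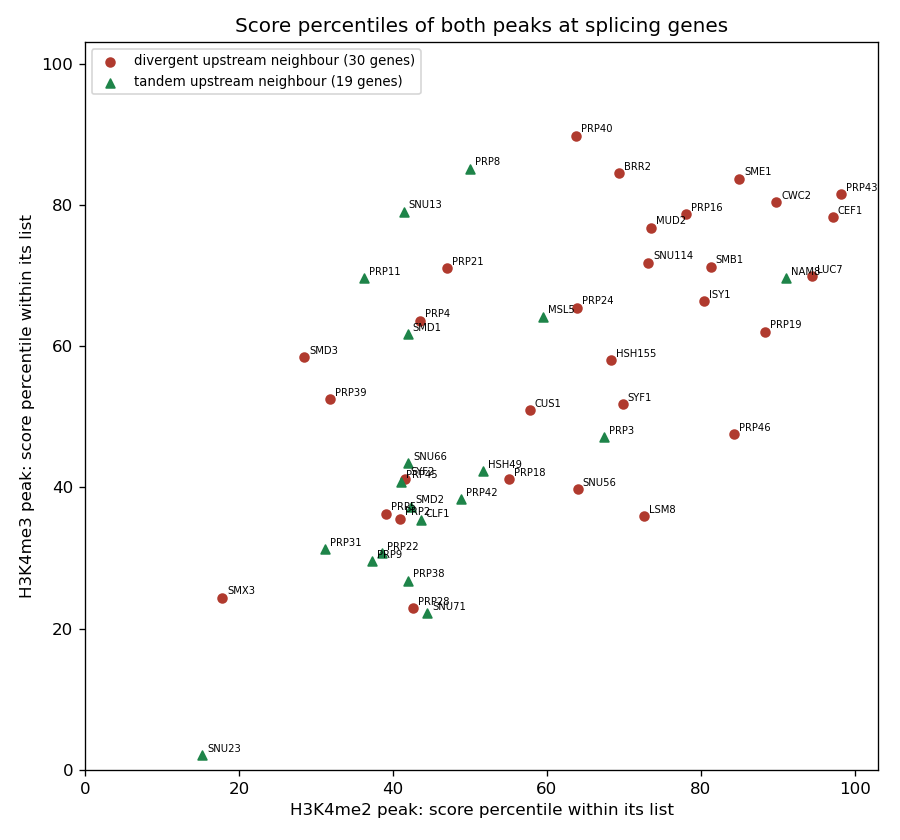
Score percentile within its own list of the H3K4me2 peak (x axis) and of the H3K4me3 peak (y axis) for the 49 splicing genes with both marks; circles are genes with a divergent upstream neighbour and triangles genes with a tandem one. PRP43 and CEF1 lie furthest right at 98.2 and 97.1, PRP40 highest at 89.8 and SNU23 lowest at 2.13, and most triangles sit in the lower left.

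The authors gave each H3K4me2 peak a cluster number, 1 or 2, and what the clusters stand for is not stated in the files. Cluster 1 held the peaks of 7 of 51 members, or 13.7% (5.7 to 26.3), against 19.2% of all genes with a peak: PRP40, BRR2, SNU13, SMB1, CWC2, SYF2 and PRP43. These 7 had a median H3K4me3 percentile of 80.4, against 49.2 for members of cluster 2, with 85.4 and 43.4 over all genes. Their H3K4me2 peaks ended a median of 25 bp past the H3K4me3 peak, against 76.5 bp in cluster 2, and over all genes the values were 40 bp and 96 bp. In the authors' deposited table of gene ontology terms for cluster 2, "spliceosomal complex assembly" had 8 genes observed of 9 annotated with 4.06 expected, a ratio of 1.97 and a Fisher p-value of 0.00922, not stated to be adjusted.

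A further 43 genes with known roles in splicing, among them Lsm proteins, smaller factors of the Prp19 complex and U2 proteins outside the set, were counted in the same way. H3K4me2 was found at 42 of 43, or 97.7%, against 75.1% of all genes, and H3K4me3 at 39, or 90.7%, against 68.7%. No SET1 deletion peak lay in the window of any of them, against 4.75% and 3.4% of all genes. The genes lacking H3K4me3 were BUD31, CWC21, LIN1 and YSF3, and SNT309 lacked H3K4me2. Of these, BUD31, LIN1 and SNT309 had a SET1 deletion peak near the start. Their median percentiles were 49.0 for H3K4me2 and 42.7 for H3K4me3. The highest were CWC23 (95.6) and SUB2 (94.3) for H3K4me2 and SUB2 (97.4) and LSM6 (93.7) for H3K4me3. The H3K4me2 peak of CWC23 also held the start of SOH1, and the H3K4me3 peak of CWC23 stood at 19.2. The H3K4me3 peak of LSM6 also held the start of ATP17. The H3K4me2 peak held another start at 10 of 42 of the further genes, or 23.8% (12.1 to 39.5), against 13.8% of all genes. With a divergent neighbour within 300 bp the count was 6 of 14, or 42.9% (17.7 to 71.1), against 47.9%. Beyond 300 bp it was 2 of 13, or 15.4%, against 10.2%. The further genes had median percentiles of 49.9 and 47.8 with a divergent upstream neighbour and 48.1 and 33.9 with a tandem one. In H3K4me2 these were nearer to each other than those of the members.

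The genes of the spliceosomal RNAs, which the proteins above bind, were looked up in the same lists. None of the 6 annotated snRNA genes, with the long and short forms of U5 counted apart, lay under a wild-type peak of either mark. In the SET1 deletion the H3K4me2 antibody gave a peak over all 6 and the H3K4me3 antibody over 5, all but SNR14, the U4 gene. The long and short forms of U5 lay under the same peaks, so they are not separate cases. Of all nuclear protein-coding genes, 6.75% and 5.48% had such a peak over the ORF. The share of other RNA genes was not counted. SNR6, the U6 gene and the one transcribed by RNA polymerase III, stood at percentiles 90.8 and 76.6 of the SET1 deletion lists. LSR1, the U2 gene, had 2 peaks with the H3K4me2 antibody, of which the last listed stood at 82.8. Its H3K4me3 antibody peak stood at 65.3. Because the wild-type lists were cleared of such regions, methylation of the snRNA genes in wild-type cells cannot be read from them. For H3K4me3 at SNR14 this holds only if peaks of either antibody were taken out, which is not known.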

How the data were processed

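H3K4me2 and H3K4me3 ChIP-seq peak lists of 4 libraries were used, 1 per group, with groups from the sample titles. Per the submitters' processing notes, Bowtie 1.1.2 and MACS2 2.1.1 were used with build sacCer3; settings, depth and the use of the input are not given in the sources used here. The authors deposited a score per peak on an unstated scale, here only ranked within a list. Nearest genes, distances and cluster numbers are columns of the deposited H3K4me2 list. The ratio and Fisher p-value of the ontology term are the authors' deposited values.

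Gene positions are those of RefSeq for assembly R64. Starts in the bed lists were read as counted from 0, and those of the annotated H3K4me2 list as counted from 1. A SET1 deletion peak was near a gene when it touched the stretch from 500 bp before its start codon to 1000 bp after it. Of several peaks in a window, the one covering most of it was used. The overlap code was tested on simulated data. Python 3.11.15, numpy 2.4.6, pandas 2.3.3, scipy 1.17.1 and matplotlib 3.10.9 were used. The members, gene lists, naming rule and alternatives were chosen with earlier results of these data known. All members may be named; those at the extremes of percentile, width and edge difference, lacking a mark, near SET1 deletion peaks or sharing a peak are given in full.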

Additional observations from a re-analysis of the deposited data

How the results depend on the processing

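Of 47 values from alternative settings, 41 kept to the reported ones, but many of these could hardly do otherwise. Every member has a standard name, so that restriction cannot change the members' counts. Genes away from SET1 deletion peaks have none in the window by definition. Merging or extending peaks and widening the window can only keep or raise a count. With the upper 50% of each list by score, 27 of 54 members had H3K4me2, against 40.7% of all genes. For H3K4me3 it was 28 of 54, or 51.9%, against 36.6%. Both marks were left at 20 of 54, or 37.0%, against 32.0%. That gap is narrower than the 90.7% against 66.2% of the main setting. The counts fell since that setting removes the other peaks. With a window from 250 bp upstream, 3 members had a SET1 deletion peak with the H3K4me2 antibody (7.75% of all genes) and 2 with the H3K4me3 antibody (5.38%), and with peaks extended by 100 bp 1 had one with the H3K4me2 antibody (5.85%). The counts of wild-type marks stayed at 51, 51 and 49 with peaks within 200 bp merged, 50% of the window covered, the window from 250 bp upstream, the whole ORF and peaks extended by 100 bp. Away from SET1 deletion peaks they were 49, 48 and 48 of 49. The median edge difference of the members lay between 56.5 bp and 64 bp, and that of all genes between 58 bp and 84 bp. With the upper 50% by score they were close, at 56.5 bp for the members and 58 bp for all genes. Restricting to genes with a standard name, and leaving out shared peaks, were added after seeing the data. No paired analysis was possible because each group had 1 list, replicate 1. For the same reason no replicate could be left out.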

Other observations

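The nearest gene named in the authors' deposited H3K4me2 list is in nearly all cases not the gene whose start the peak covers. Of 4297 genes with their start codon under their H3K4me2 peak, 4 are named as that peak's nearest gene, and of the 51 splicing genes with a peak 0 are. Instead, 36 peaks name 33 of the splicing genes, at deposited distances between 125 bp and 3510 bp. Of these 33 genes, 27 are named for a cluster 2 peak and 6 for a cluster 1 peak. Which of the 2 assignments stands behind the term "spliceosomal complex assembly" in the authors' deposited ontology table is not stated in the files.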
